A study of Mus musculus with 9 samples.

Results

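The mitosis and spindle genes are a set of 59 genes that were chosen by name from a list of mitotic kinases and cyclins, kinetochore and spindle proteins, checkpoint and cytokinesis factors and proteins that shape mitotic chromosomes. All 59 were found among the 24060 genes of the expression table. They were sorted here into 8 roles. All 59 reached more than 1 TPM (a level corrected for transcript length and brought to 1 common total) in at least 1 library and were therefore among the 11330 genes tested. Cenpf and Nusap1 exceeded 1 TPM in R7-III libraries alone, so that they entered the test through the clone in which they were high.

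The RNA was from CD8 T cells of 3 transnuclear mouse lines on a BALB/c, Rag2-proficient background. A transnuclear line is cloned from the nucleus of a single mature T cell, so that its CD8 T cells share the receptor of that cell. R7-I, R7-II and R7-III all recognize 1 peptide of ROP7, a Toxoplasma protein, presented by H-2Ld, and the labels rank their affinity for it as R7-I > R7-III > R7-II and their self-reactivity as R7-III > R7-I > R7-II. Splenocytes of each line were cultured overnight with ROP7 peptide (10 µM) and IL-2 (10 ng/ml), and CD3+ CD8+ tetramer-positive cells were then sorted for polyA RNA sequencing. Each clone had 3 libraries of activated cells, 9 in all. The age and sex of the mice are not given in the sources used here, and nothing states that the replicates of a clone were separate animals, so that the p-values measure the spread between these libraries. Each clone is 1 mouse line. Affinity, self-reactivity and every other difference between the lines therefore cannot be told apart.

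A cell enters mitosis when cyclin-dependent kinase 1, bound to cyclin A or B, is switched on by Cdc25 phosphatases. Condensin and topoisomerase compact the chromosomes, kinetochores attach them to the spindle, and the spindle checkpoint holds back the anaphase-promoting complex until every chromosome is attached. Separase then cuts cohesin, and a midzone of bundled microtubules directs the cleavage of the cell. Most of the genes involved are silent in resting T cells and are transcribed late in the cell cycle, in G2 and mitosis, after a T cell has been driven out of quiescence by its receptor and IL-2.

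TPM values keep no record of the number of reads, so no counting interval is given. Between 13738 and 14434 genes were above 0 in a library. The CD8 T cell markers (Cd8a, Cd8b1, Cd3e, Cd3d, Cd3g and Cd247) summed to between 1499 and 1550 TPM in R7-I, to between 2236 and 2295 in R7-II and to between 1717 and 1727 in R7-III. Of the markers of other cells, the B cell, MHC class II and myeloid lists summed higher in the R7-II libraries than in both other clones. The erythroid, CD4 T cell and NK cell lists did not. The B cell list (8 genes) summed to 33.8 to 69.8 TPM in R7-II, 8.08 to 15.01 in R7-I and 4.75 to 7.39 in R7-III, and R7-II was higher in both comparisons for 7 of the 7 genes tested. The MHC class II list, with 6 of 6 genes higher in R7-II, summed to 111.1 to 179.4 TPM in R7-II, 32.1 to 48.9 in R7-I and 24.3 to 27.8 in R7-III. The myeloid list, with 6 of 7 higher, summed to 23.1 to 77.2, 4.42 to 5.55 and 5.59 to 6.92 TPM. Each of the 6 CD8 T cell markers was likewise called with a raised level in R7-II, against R7-I and against R7-III. Such a call was given to 40.6% of all genes tested against R7-I, to 35.6% against R7-III and to 31.9% against both. These counts are therefore not peculiar to the markers of other cells. No gene of the erythroid list (8 genes, 4 tested) was called, at 22.2 to 73.4 TPM in R7-I, 1.49 to 15.12 in R7-II and 9.09 to 25.74 in R7-III, and Hbb-bs was at 0 in R7-I and R7-III. The CD4 T cell list (4 genes) summed to at most 8.01 TPM and the NK cell list (4 genes, with Klra8 at 0 in all) to at most 0.67 TPM. The most abundant genes of these lists were Cd8b1, Cd79b, Cd74, Lyz2, Hba-a2, Cd40lg and Klri2. The part of these other cells in the results on mitotic genes was not tested. In bulk RNA, fewer cycling cells and less mitotic RNA in each cell cannot be told apart.

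Most mitotic transcripts were least abundant in R7-II and most abundant in R7-III. The median level over the 59 genes was 4.63 to 5.61 TPM in the R7-I libraries, 2.97 to 3.30 TPM in R7-II and 8.39 to 9.02 TPM in R7-III, and the 3 clones did not overlap. Their summed level did not separate R7-II from R7-I. It was 553.7 to 614.1 TPM in R7-I, 543.9 to 559.4 TPM in R7-II and 885.2 to 960.0 TPM in R7-III. Smc4 alone made up 28.2% to 35.8% of that sum in R7-II, against 17.1% to 18.4% in R7-I and 13.7% to 14.3% in R7-III. Without Smc4 the sums were 451.9 to 508.9 TPM, 352.6 to 390.7 TPM and 758.5 to 828.8 TPM, with no overlap between clones.

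**Figure D1:**
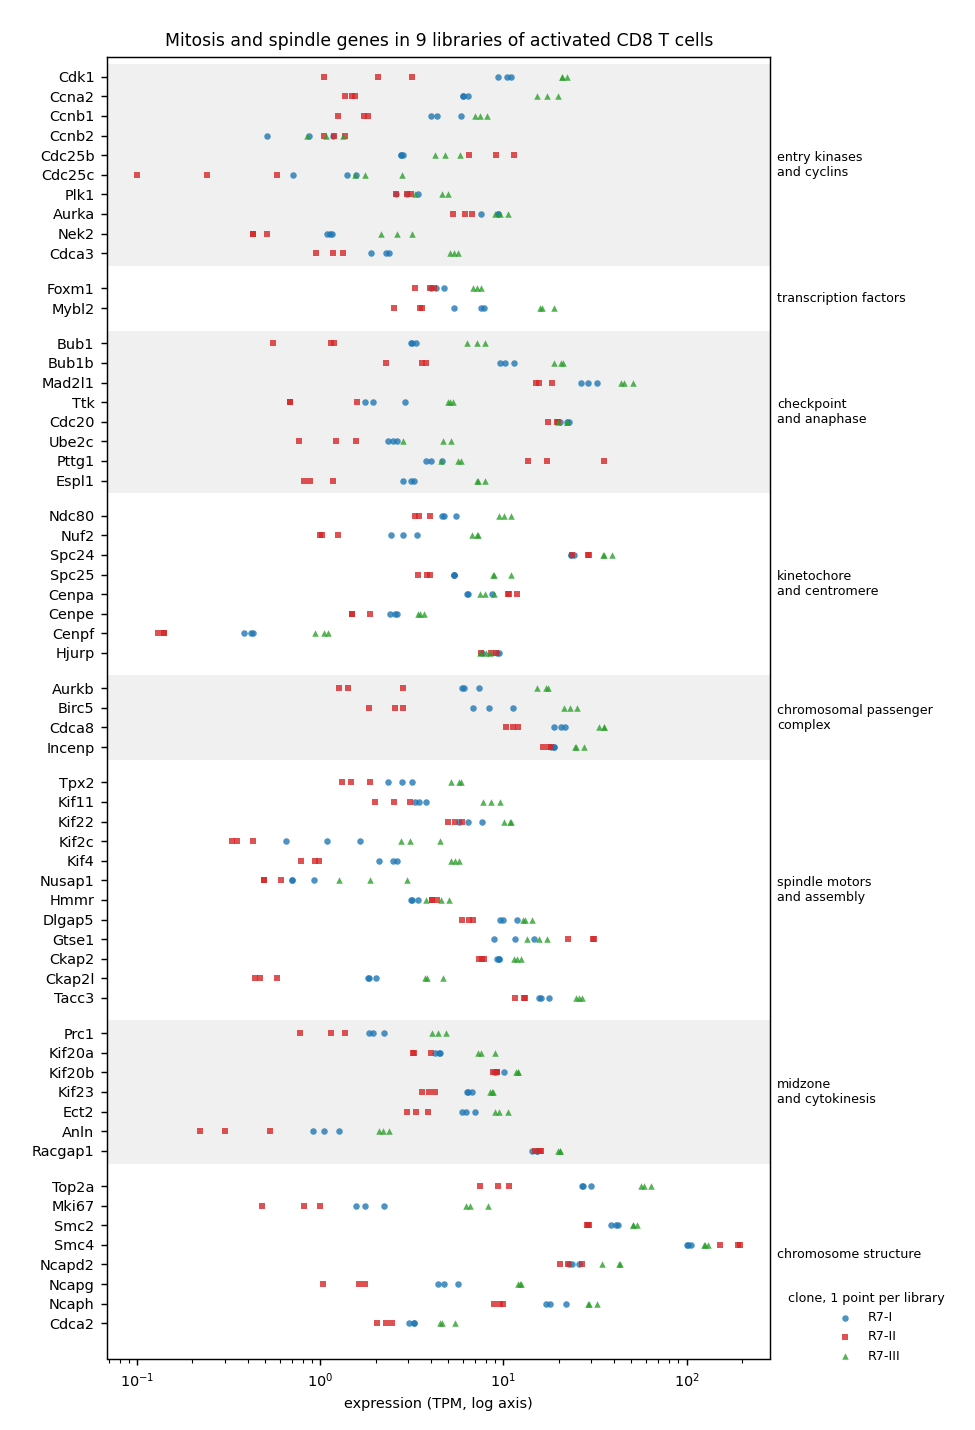
Expression (TPM, log axis) of the 59 mitosis and spindle genes in the 9 libraries, 1 point per library, sorted by role. In 40 genes the R7-II points lie left of all R7-I points and these left of all R7-III points, while Cdc25b, Pttg1, Cenpa, Gtse1 and Smc4 are highest in R7-II.

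A gene was called changed between 2 clones at an adjusted p of at most 0.01 (limma on log2(TPM + 1), Benjamini-Hochberg adjustment over all genes tested), and fold changes are on the log2(TPM + 1) scale, which understates the changes of low genes. Against R7-I, 37 of the 59 genes were lower in R7-II, 5 were higher and 17 were not called. Of all genes tested, 15.5% were lower and 40.6% were higher in this comparison. Against R7-III, 49 were lower in R7-II, 5 were higher and 5 were not called, where 18.0% of all genes were lower and 35.6% higher. Of the 59, 41 were higher in R7-III than in R7-I, 0 were lower and 18 were not called, where 6.96% of all genes were higher and 1.45% lower. With limma, 52 of the 59 had an unadjusted p under 0.05 in this last comparison, as did 32.3% of all genes. Calls in either direction made up 56.1%, 53.6% and 8.41% of all genes in the 3 comparisons. The 37 genes lower in R7-II than in R7-I were also lower than in R7-III, which held for 12.8% of all genes, and 5 genes, Cdc25b, Pttg1, Cenpa, Gtse1 and Smc4, were in both comparisons higher in R7-II, which held for 31.9% of all genes. The comparisons share libraries, so that these counts are not independent of each other. Without a model, all R7-II libraries lay below all R7-I libraries for 43 of the 59 genes and above them for 6, against 20.6% and 50.6% of all genes. They lay below all R7-III libraries for 51 and above them for 5, against 24.3% and 46.4%. All R7-III libraries lay above all R7-I libraries for 50 and below them for 0, against 29.5% and 12.4%.

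The median log2 fold change over the 59 genes was -0.53 for R7-II relative to R7-I, -1.21 for R7-II relative to R7-III and 0.65 for R7-III relative to R7-I. Over all genes tested the same medians were 0.17, 0.12 and 0.04. Scaling the libraries by the median of ratios moved the medians of all genes to -0.00 in each comparison and those of the mitotic genes to -0.64, -1.26 and 0.61. Among all genes called between R7-II and R7-I, 72.4% were higher in R7-II on the TPM scale, 46.2% after that scaling and 45.9% after quantile normalization. Against R7-III these shares were 66.5%, 47.0% and 49.3%, and for R7-III against R7-I they were 82.8%, 56.6% and 62.6%. For the mitotic genes called, the share higher in R7-II was 11.9%, 10.2% and 7.69% against R7-I and 9.26%, 7.27% and 5.56% against R7-III, and the share higher in R7-III than in R7-I was 100% each time. Changes of more than 1 on the log2(TPM + 1) scale were called in 13, 32 and 12 of the 59 genes in the 3 comparisons, against 7.25%, 7.58% and 0.989% of all genes. Under both other scalings, 7 genes not called on the TPM scale (Foxm1, Cdc20, Incenp, Kif11, Kif22, Kif2c and Kif20a) were called as lower in R7-II in the comparison with R7-I, and Plk1 and Cdc20 in that with R7-III.

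**Figure D2:**
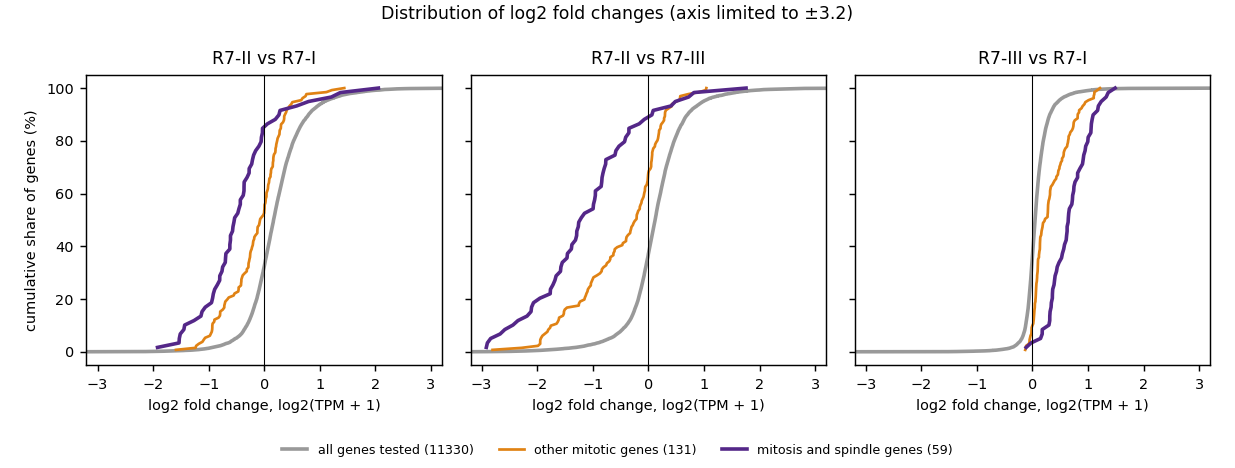
Cumulative share of genes (%) by log2 fold change of TPM + 1 in the 3 comparisons, for the 59 mitosis and spindle genes, 131 other mitotic genes and all 11330 genes tested. The curve of the 59 genes lies left of that of all genes in both R7-II comparisons, with medians of -0.53 and -1.21 against 0.17 and 0.12, and right of it for R7-III against R7-I.

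Most of the genes followed 1 order. The mean level fell from R7-III through R7-I to R7-II in 48 of the 59 genes (81.4%), an order held by 17.2% of all genes tested. The order R7-II > R7-III > R7-I, which was the most frequent over all genes (37.6%), was found in 6 of the 59 (10.2%). In 40 of the 59 genes (67.8%) the libraries of the 3 clones did not overlap at all and had the order R7-III > R7-I > R7-II, against 5.80% of all genes tested. The difference was called in all 3 comparisons, with this order, in 31 of the 59 genes and in 2.04% of all genes. With 3 libraries a clone, an exact two-sided permutation test of a single gene between 2 clones cannot give a p below 0.1.

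The promoters of these genes were read from a table of RefSeq promoters (build GRCm38.p6, 250 bases before to 50 bases after the transcription start), which held 48 of the 59. Genes of late cell cycle phases are known to carry a CHR element (cell cycle genes homology region), the docking site of the MuvB core of the DREAM and B-MYB complexes, often with CCAAT boxes bound by NF-Y. The letters TTTGAA, searched on both strands, were found in 34 of the 48 promoters (70.8%) and in 20.2% of the 27025 promoters of the table. Among the 8504 promoters of genes tested here the share was 14.1%. Within 60 bases before to 40 bases after the start they were found in 60.4% of the 48, in 6.11% of all and in 3.87% of the genes tested. The letters CCAAT, on both strands, were in 75.0% of the 48, 41.1% of all and 43.4% of the genes tested. Of the 48, 30 held both TTTGAA and CCAAT. A core of E2F sites, TTCCCGC, was in 2.08% of the 48, 5.29% of all and 10.1% of the genes tested. Another, TTGGCGC, was in 12.5%, 2.85% and 5.23%. The letters TTGGCGC can share TTGG with a CCAAT box on the opposite strand. A match is a run of letters and not a measured binding site. In 8 of the 48 genes the start used by the table lies more than 200 bases inside the outermost RefSeq start of the gene (308 to 3852 bases), so that the sequence at the outer start was not searched. Pttg1 (1482 bases) and Cdc25b (512 bases) are among these.

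The stretches below are 150 bases long, end 25 bases after the start of transcription and are printed 5′ to 3′ on the strand of the gene, with the letters of a CHR element (TTTGAA or TTCAAA) and of a CCAAT box (CCAAT or ATTGG) in capitals. The first 4 are those of the genes with the largest falls in R7-II against R7-III that hold a CHR element in this stretch, Cdk1 (chr10:69352888-69353037, minus strand), Top2a (chr11:99024165-99024314, minus strand), Ncapg (chr5:45669800-45669949, plus strand) and Mki67 (chr7:135716355-135716504, minus strand).
Cdk1: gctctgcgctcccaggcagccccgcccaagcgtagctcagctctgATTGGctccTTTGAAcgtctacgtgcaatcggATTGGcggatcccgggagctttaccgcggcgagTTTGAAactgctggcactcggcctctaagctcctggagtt
Top2a: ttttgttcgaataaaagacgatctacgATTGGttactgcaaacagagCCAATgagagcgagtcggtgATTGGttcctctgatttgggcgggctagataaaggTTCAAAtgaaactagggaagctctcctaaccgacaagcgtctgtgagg
Ncapg: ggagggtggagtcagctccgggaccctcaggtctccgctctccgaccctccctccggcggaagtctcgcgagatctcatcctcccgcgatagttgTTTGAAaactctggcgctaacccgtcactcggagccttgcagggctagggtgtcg
Mki67: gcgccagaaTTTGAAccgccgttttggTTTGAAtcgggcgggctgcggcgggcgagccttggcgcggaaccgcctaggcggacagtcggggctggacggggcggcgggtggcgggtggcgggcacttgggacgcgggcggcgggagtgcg

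The next pair, Hjurp (chr1:88277555-88277704, minus strand) and Hmmr (chr11:40733413-40733562, minus strand), also holds a CHR element, and neither gene was called in any comparison.
Hjurp: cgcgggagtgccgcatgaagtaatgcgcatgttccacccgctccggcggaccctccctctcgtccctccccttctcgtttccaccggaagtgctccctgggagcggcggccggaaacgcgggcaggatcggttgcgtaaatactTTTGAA
Hmmr: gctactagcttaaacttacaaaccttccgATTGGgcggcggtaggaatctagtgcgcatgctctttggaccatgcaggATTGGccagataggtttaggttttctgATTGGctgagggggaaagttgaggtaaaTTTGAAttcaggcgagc

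The last stretch, of Gtse1 (chr15:85859582-85859731, plus strand), is that of a gene higher in R7-II. It holds 3 CCAAT boxes and neither TTTGAA nor TTCAAA. Other forms of a CHR element were not searched.
Gtse1: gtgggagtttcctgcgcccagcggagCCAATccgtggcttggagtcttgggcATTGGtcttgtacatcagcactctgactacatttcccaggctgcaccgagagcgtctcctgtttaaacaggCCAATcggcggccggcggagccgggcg

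The change of genes with and without the letters TTTGAA is given here without a test. The 34 genes with a match had median log2 fold changes of -0.50, -1.26 and 0.67 for R7-II relative to R7-I, R7-II relative to R7-III and R7-III relative to R7-I. The 14 without a match (Birc5, Bub1, Ccnb1, Cdc25b, Cenpe, Gtse1, Mad2l1, Mybl2, Ncaph, Nek2, Nuf2, Nusap1, Pttg1 and Tacc3) had medians of -0.67, -1.39 and 0.66. Of the 5 genes higher in R7-II, Cenpa held a match, Cdc25b, Gtse1 and Pttg1 did not, and Smc4 was not in the table. For Cdc25b and Pttg1 the outer start was not searched.

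**Figure D3:**
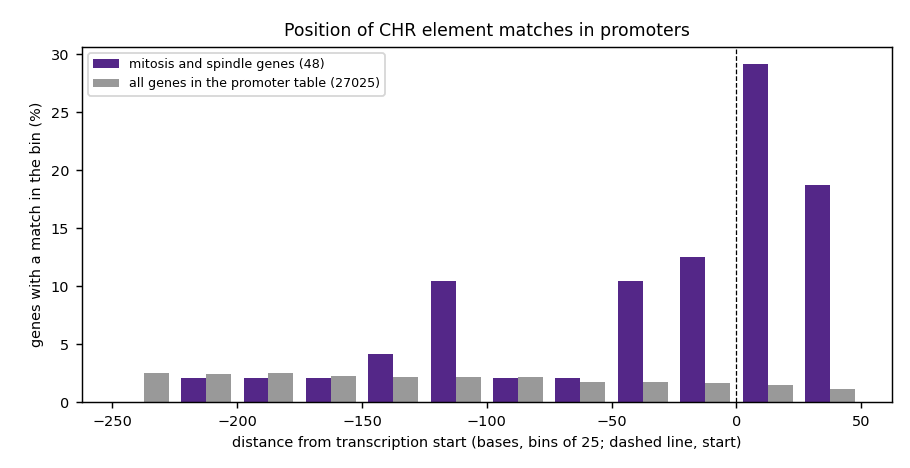
Share of genes (%) with a CHR element match in each bin of 25 bases, by distance from the transcription start, for the 48 mitosis and spindle genes and all 27025 genes of the promoter table. In the 25 bases after the start the share is 29.2% for the 48 genes and 1.54% for all genes.

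Among the 10 kinases, cyclins and phosphatases of mitotic entry, R7-II was lower than R7-I for 7, and lower than R7-III for 7 as well. Cdk1, the kinase that drives entry into mitosis, had the largest fall of the set on the log2(TPM + 1) scale. Its levels were 9.29, 11.02 and 10.4 TPM in the R7-I libraries, 1.04, 3.17 and 2.05 in those of R7-II and 20.96, 20.86 and 22.26 in those of R7-III. The 3 clones did not overlap, and the mean of R7-II was 4.91-fold below R7-I (log2 fold change -1.92, standard error 0.20, adjusted p = 1.16e-05 from limma) and 10.2-fold below R7-III (-2.92, adjusted p = 6.31e-07). Ccna2, cyclin A2, which activates Cdk1 and Cdk2 before mitosis, stood at 6.03, 6.42 and 5.98 TPM in the R7-I libraries, 1.36, 1.55 and 1.49 in those of R7-II and 17.34, 15.25 and 19.8 in those of R7-III. Its libraries were also fully separated, with log2 fold changes of -1.53 and -2.90 for R7-II and of 1.36 for R7-III against R7-I (adjusted p = 3.31e-07, 2.86e-08 and 1.22e-05 from limma). As a ratio of means, its fall against R7-III (11.9-fold) was larger than that of Cdk1.

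The cyclins B parted. Ccnb1, the main mitotic cyclin, fell by 1.14 and 1.72 on the log2 scale in R7-II and was not called between R7-III and R7-I (0.58, adjusted p = 0.0133 from limma), although the libraries did not overlap. Ccnb2, a cyclin of the Golgi and cytoplasm, was low, at 0.51, 0.87 and 1.17 TPM in the R7-I libraries, 1.36, 1.19 and 1.05 in those of R7-II and 1.32, 0.84 and 1.07 in those of R7-III. Its clones overlapped in every comparison, and the log2 fold changes were 0.26 with R7-I and 0.09 with R7-III as the reference, both of which turned negative after quantile normalization.

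The phosphatases that switch Cdk1 on parted as well. Cdc25b, which acts at the centrosome at the start of mitosis, was at 2.74, 2.82 and 2.77 TPM in the R7-I libraries, 11.35, 6.45 and 9.11 in those of R7-II and 4.25, 4.81 and 5.76 in those of R7-III. All R7-II libraries were above all others, by 1.37 over R7-I and 0.72 over R7-III on the log2 scale (adjusted p = 2.92e-05 and 0.00237 from limma). The call against R7-III was lost without R7-III replicate 1 (adjusted p = 0.0120) and after quantile normalization (0.54, adjusted p = 0.01008). Cdc25c, a low gene at a mean of 0.307 TPM in R7-II, 1.22 in R7-I and 2.03 in R7-III, fell by 0.76 against R7-I and by 1.21 against R7-III.

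Of the kinases of the centrosome and spindle poles, Plk1 was not called and Aurka and Nek2 were lower in R7-II. Plk1, polo-like kinase 1, was at 2.59, 3.42 and 2.97 TPM in the R7-I libraries, 2.97, 2.59 and 3.14 in those of R7-II and 4.6, 3.29 and 4.99 in those of R7-III. R7-II overlapped R7-I (log2 fold change -0.03) and lay below every R7-III library without a call (-0.43, adjusted p = 0.0162 from limma). It was called without R7-III replicate 2 (adjusted p = 0.00272) and under both other scalings (0.00509 and 0.00218). Aurka, the kinase of spindle poles, was at 9.29, 9.35 and 7.55 TPM in the R7-I libraries, 6.17, 5.33 and 6.77 in those of R7-II and 9.58, 9.03 and 10.61 in those of R7-III. It was lower in R7-II in both comparisons (-0.46 and -0.60), and R7-III and R7-I overlapped (0.15). Nek2, which separates centrosomes, and Cdca3, a trigger of mitotic entry, fell by 0.55 and 0.57 against R7-I and by 1.31 and 1.57 against R7-III, and both were higher in R7-III than in R7-I. Some of these calls against R7-I were lost when a single library was left out. That of Aurka was lost without R7-I replicate 1 or 2 (adjusted p = 0.0129 for both), that of Nek2 without R7-I replicate 1 (0.0101), and that of Cdc25c without R7-I replicate 2 or 3, R7-II replicate 1 or 3 or R7-III replicate 2 (0.0113 to 0.0344). The higher level of Cdk1 in R7-III than in R7-I (1.00, adjusted p = 0.00660) was lost when any of the 6 libraries of these clones was left out (0.0181 to 0.0318), and that of Nek2 without R7-I replicate 1 or R7-III replicate 1 or 2 (0.0104 to 0.0114).

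The transcription factors of the set were Foxm1 and Mybl2, which act on CHR genes in G2 and in S phase. Mybl2, which encodes B-MYB, was at 5.4, 7.87 and 7.55 TPM in the R7-I libraries, 2.51, 3.5 and 3.57 in those of R7-II and 15.82, 16.18 and 18.78 in those of R7-III. The clones did not overlap, and all 3 differences were called (-0.92, -2.10 and 1.19). Foxm1 had means of 4.35, 3.81 and 7.18 TPM in R7-I, R7-II and R7-III. It was lower in R7-II than in R7-III (-0.77) and higher in R7-III than in R7-I (0.61), while R7-II overlapped R7-I (-0.15, adjusted p = 0.161 from limma, called as -0.31 and -0.51 under the other scalings).

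Of the 8 checkpoint and anaphase genes, 6 were lower in R7-II in either comparison, and Pttg1 was higher. Mad2l1, the checkpoint protein Mad2 and the most abundant of the role in R7-I and R7-III, was at 26.61, 32.25 and 28.8 TPM in the R7-I libraries, 14.97, 18.48 and 15.64 in those of R7-II and 45.41, 43.82 and 51.26 in those of R7-III. Its 3 clones were separate (-0.80, -1.46 and 0.66, adjusted p = 2.36e-05, 3.77e-07 and 8.71e-04 from limma). Bub1 and Bub1b, kinases that load the checkpoint onto kinetochores, fell by 1.12 and 1.45 against R7-I and by 2.07 and 2.35 against R7-III. Ttk, the kinase Mps1 at the top of the checkpoint, fell by 0.70 and 1.66.

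The genes at the exit from the checkpoint differed among themselves. Cdc20, the activator of the anaphase-promoting complex and the target of Mad2, was at 22.24, 22.78 and 20.38 TPM in the R7-I libraries, 19.75, 17.52 and 19.64 in those of R7-II and 22.29, 22.16 and 19.76 in those of R7-III. Its R7-II libraries were below all others by little, the log2 fold changes of -0.19 and -0.17 were not called on the TPM scale but were after median-of-ratios scaling (-0.37 and -0.29) and quantile normalization (-0.44 and -0.34), and R7-III overlapped R7-I (-0.03). Ube2c, the ubiquitin-conjugating enzyme of that complex, fell by 0.69 and 1.25 in R7-II. Espl1, which encodes separase, fell by 1.06 and 2.11, from means of 3.07 TPM in R7-I and 7.42 in R7-III to 0.953. Pttg1, which encodes securin, the inhibitor and chaperone of separase, was at 3.79, 4.64 and 4.04 TPM in the R7-I libraries, 13.65, 35.53 and 17.21 in those of R7-II and 5.85, 5.64 and 4.54 in those of R7-III. Every R7-II library was above every other library, with R7-II replicate 2 the highest, and Pttg1 had the largest rise of the set (2.05 against R7-I, standard error 0.26, adjusted p = 5.37e-05 from limma, and 1.76 against R7-III, adjusted p = 1.72e-04). The level of Pttg1 over that of Espl1 was 16.9 to 30.4 in R7-II, 1.29 to 1.42 in R7-I and 0.576 to 0.807 in R7-III. In the comparison with R7-I, the call of Ube2c was lost without R7-I replicate 1, 2 or 3 or R7-II replicate 1 or 2 (adjusted p = 0.0141 to 0.0277) and that of Ttk without R7-I replicate 2 or 3 or R7-II replicate 1 or 3 (0.0106 to 0.0248). The rise of Ttk in R7-III over R7-I (0.96) was lost without any of their libraries but R7-I replicate 2 (0.0178 to 0.0261).

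Of the 8 kinetochore and centromere genes, 4 were lower in R7-II than in R7-I, 6 were lower than in R7-III, and Cenpa was higher in both. The NDC80 complex, which holds microtubules at the kinetochore, has 4 subunits with unequal changes. Ndc80 and Nuf2, the arm that contacts the microtubule, fell by 0.38 and 0.89 against R7-I and by 1.29 and 1.95 against R7-III, and Spc25, of the arm that anchors the complex to the centromere, by 0.43 and 1.15. Spc24, the partner of Spc25 and the most abundant of the role, was at 23.38, 24.31 and 23.29 TPM in the R7-I libraries, 28.98, 23.79 and 29.47 in those of R7-II and 35.37, 35.16 and 39.23 in those of R7-III. It overlapped between R7-II and R7-I (log2 fold change 0.20, -0.03 after quantile normalization), with 0.29 and a call without R7-II replicate 2 (adjusted p = 0.00108), and was lower in R7-II than in R7-III (-0.41, adjusted p = 8.44e-04). The level of Spc24 over Ndc80 was 5.98 to 8.93 in R7-II, 4.42 to 5.05 in R7-I and 3.52 to 3.71 in R7-III.

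The histone of the centromere and its loader differed from the rest. Cenpa, the centromeric histone H3, had means of 7.10, 11.03 and 8.08 TPM in R7-I, R7-II and R7-III and was higher in R7-II (0.58 and 0.41). The call of Cenpa against R7-III was lost without any of the R7-II libraries and without R7-III replicate 1 or 3 (adjusted p = 0.0136 to 0.0316). Both other scalings (0.28 and 0.22, adjusted p = 0.0477 and 0.133) ended this call too. It was also lost without a filter (0.0198), without the trend in limma's moderation (0.0124) and with a replicate block (0.0139), and quantile normalization ended its call against R7-I (0.26, 0.0775). Hjurp, the chaperone that deposits Cenpa, was at 7.6, 9.4 and 9.22 TPM in the R7-I libraries, 8.58, 9.07 and 7.52 in those of R7-II and 7.43, 8.05 and 8.46 in those of R7-III. All clones overlapped, with log2 fold changes of -0.05, 0.06 and -0.11 for R7-II against R7-I, R7-II against R7-III and R7-III against R7-I, and the second turned negative under both other scalings. Quantile normalization gave a call as lower in R7-II than in R7-I (-0.37, adjusted p = 0.00719). Cenpe, a kinesin that moves chromosomes to the spindle equator, was lower in R7-II (-0.43 and -0.80). Cenpf, a kinetochore protein of G2, was the least abundant gene of the set, at a mean of 0.137 TPM in R7-II, 0.41 in R7-I and 1.03 in R7-III, and was called against R7-III (-0.83) and, after quantile normalization, against R7-I (-0.55). The call of Ndc80 against R7-I was lost without R7-I replicate 2 or R7-II replicate 1 or 3 (adjusted p = 0.0129 to 0.0197).

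The chromosomal passenger complex, which corrects faulty attachments and later marks the midzone, has 4 subunits. All 4 were lower in R7-II than in R7-III and higher in R7-III than in R7-I, and 3 were lower in R7-II than in R7-I. Birc5, which encodes survivin, was at 8.38, 11.32 and 6.8 TPM in the R7-I libraries, 1.85, 2.84 and 2.55 in those of R7-II and 21.5, 23.11 and 25.17 in those of R7-III. The clones were separate (-1.51, -2.84 and 1.33, adjusted p = 1.28e-05, 2.01e-07 and 4.12e-04 from limma). Aurkb, the kinase of the complex, was lower in R7-II (-1.43 and -2.67), at a mean of 1.83 TPM, than in R7-I (6.46) and R7-III (16.5). Cdca8, which encodes borealin and was the most abundant subunit in R7-I and R7-III, was at 18.78, 21.61 and 20.57 TPM in the R7-I libraries, 10.33, 12.07 and 11.28 in those of R7-II and 35.39, 33.45 and 35.33 in those of R7-III. It was separate in all 3 clones, with log2 fold changes of -0.80, -1.55 and 0.75. Incenp, the scaffold, had means of 18.7, 17.4 and 25.6 TPM in R7-I, R7-II and R7-III, overlapped between R7-II and R7-I (-0.10, called as -0.27 and -0.36 under the other scalings) and was lower in R7-II than in R7-III (-0.53). The level of Incenp over Aurkb was 5.82 to 14.3 in R7-II, 2.58 to 3.11 in R7-I and 1.46 to 1.61 in R7-III.

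**Figure D4:**
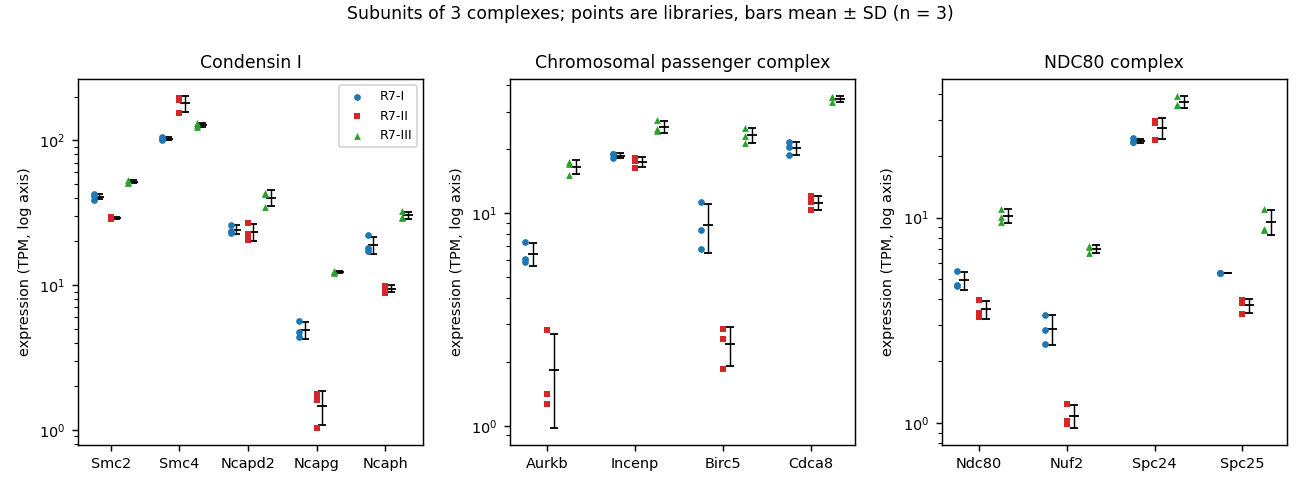
Levels (TPM, log axis) of the subunits of condensin I, the chromosomal passenger complex and the NDC80 complex. Points are libraries and bars the mean ± SD of 3 libraries of a clone, and Smc4 is the only subunit shown with its highest mean in R7-II, at 179.8 TPM.

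Of the 12 spindle motor and assembly genes, 6 were lower in R7-II than in R7-I, 10 were lower than in R7-III, and Gtse1 was higher in both. Gtse1, which stabilizes spindle microtubules and also curbs p53 in G2, was the most abundant of the role in R7-II, at 8.91, 11.6 and 14.77 TPM in the R7-I libraries, 30.91, 31.26 and 22.57 in those of R7-II and 13.47, 15.7 and 17.25 in those of R7-III. All R7-II libraries lay above the others (1.21 and 0.82, adjusted p = 9.74e-05 and 0.00144 from limma). Hmmr, a spindle protein and hyaluronan receptor, was at 3.42, 3.12 and 3.16 TPM in the R7-I libraries, 4.31, 4.08 and 4.07 in those of R7-II and 3.75, 4.56 and 5.03 in those of R7-III. It was not called, with 0.28 against R7-I (-0.07 after quantile normalization) and -0.07 against R7-III.

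Kif4, a chromokinesin, fell by 0.84 and 1.77. Kif11 (Eg5), which pushes the spindle poles apart, Kif22, which pushes chromosome arms, and Kif2c, which removes faulty attachments, were not called against R7-I on the TPM scale (-0.36, -0.23 and -0.61) and were lower in R7-II than in R7-III (-1.46, -0.85 and -1.68). They were called as lower than in R7-I after median-of-ratios scaling (-0.50, -0.39 and -0.68) and quantile normalization (-0.71, -0.57 and -0.91). Tpx2, which activates Aurora A on microtubules, fell by 0.56 and 1.38, Dlgap5, which stabilizes kinetochore fibres, by 0.62 and 0.95, and Tacc3, a cross-linker of those fibres, by 0.36 and 0.99. Ckap2 and Ckap2l, microtubule proteins of related sequence, fell by 0.27 and 0.95 against R7-I and by 0.58 and 1.76 against R7-III. Nusap1, a microtubule bundler near chromosomes, was at a mean of 0.53 TPM in R7-II and was called against R7-III (-0.95). In the comparison with R7-I, Kif11 was called without R7-II replicate 2 (adjusted p = 0.00423) and Kif2c without R7-I replicate 1 (0.00465). R7-III was higher than R7-I for 8 of the 12. Of these, Ckap2 was lost without any of the 6 libraries (0.0119 to 0.0317), Kif2c without R7-I replicate 1 or 3 or R7-III replicate 1 or 3 (0.0112 to 0.0146) and Kif22 without R7-I replicate 1 or R7-III replicate 1 or 2 (0.01004 to 0.01075).

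All 7 midzone and cytokinesis genes were lower in R7-II than in R7-III and higher in R7-III than in R7-I, and 4 were lower in R7-II than in R7-I. Racgap1, the GTPase-activating subunit of centralspindlin and the most abundant of the role, was at 14.28, 15.3 and 15.24 TPM in the R7-I libraries, 14.86, 15.79 and 16.09 in those of R7-II and 20.31, 19.75 and 20.33 in those of R7-III. R7-II overlapped R7-I (0.06, and -0.12 and -0.21 under the other 2 scalings) and lay below R7-III (-0.35, adjusted p = 1.78e-04 from limma). Kif23, the kinesin of centralspindlin, fell by 0.61 and 0.97, and Ect2, the exchange factor that centralspindlin recruits, by 0.75 and 1.29. Kif20b, a kinesin of late cytokinesis, was at 9.1, 10.02 and 8.87 TPM in the R7-I libraries, 9.23, 8.77 and 9.26 in those of R7-II and 11.93, 11.97 and 11.66 in those of R7-III. It overlapped between R7-II and R7-I (-0.03, called as -0.35 after quantile normalization) and was lower in R7-II than in R7-III (-0.35). Prc1, the bundler of midzone microtubules, and Anln, anillin of the contractile ring, fell by 0.53 and 0.62 against R7-I and by 1.39 and 1.26 against R7-III. Kif20a, which carries the passenger complex to the midzone, was lower in R7-II than in R7-III (-0.99) and was not called against R7-I (-0.27), except under the other scalings (-0.42 and -0.63). The call of Prc1 against R7-I was lost without R7-I replicate 2 (adjusted p = 0.0146). In the comparison of R7-III with R7-I, the calls of Anln (0.0147 to 0.0293) and Kif23 (0.0114 to 0.0388) were lost without any of the 6 libraries, that of Kif23 also without R7-II replicate 3, and those of Ect2 (0.0109 to 0.0222) and Kif20b (0.0203 to 0.0312) without any of them but R7-I replicate 2.

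Of the 8 chromosome structure genes, 6 were lower in R7-II than in R7-I, 7 were lower than in R7-III, and Smc4 was higher in both. Top2a, the topoisomerase that untangles sister chromatids, was at 26.92, 30.22 and 27.16 TPM in the R7-I libraries, 7.42, 10.7 and 9.37 in those of R7-II and 58.45, 56.18 and 63.71 in those of R7-III. No library of 1 clone overlapped another clone, and the log2 fold changes were -1.53, -2.58 and 1.05 (adjusted p = 7.12e-07, 5.65e-08 and 1.32e-04 from limma). Mki67, which encodes the proliferation marker Ki-67 that coats mitotic chromosomes, was at 1.57, 1.75 and 2.23 TPM in the R7-I libraries, 0.48, 0.81 and 1 in those of R7-II and 6.53, 6.22 and 8.24 in those of R7-III. Its difference between R7-III and R7-I was the largest of the 59 genes (1.49, standard error 0.15, adjusted p = 1.25e-04), and R7-II was below R7-I by 0.70 and below R7-III by 2.18.

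Condensin I consists of the ATPases Smc2 and Smc4 and the subunits Ncaph, Ncapd2 and Ncapg, and its genes moved in opposite directions. Smc4 was the most abundant gene of the set, at 101.87, 105.25 and 100.26 TPM in the R7-I libraries, 196.21, 153.22 and 190.07 in those of R7-II and 124.33, 126.68 and 131.16 in those of R7-III. All R7-II libraries were above the others (0.80 and 0.49, adjusted p = 6.33e-06 and 2.25e-04 from limma), and R7-III was above R7-I without a call (0.31, adjusted p = 0.0171, called without R7-II replicate 2 at 2.49e-04). Smc2, its partner in the ring, fell by 0.48 and 0.82, to 29.0 TPM from means of 40.7 in R7-I and 51.8 in R7-III. The level of Smc4 over Smc2 was 5.22 to 6.82 in R7-II, 2.47 to 2.58 in R7-I and 2.44 to 2.49 in R7-III. The level of Cenpa over Hjurp was 1.24 to 1.40 in R7-II, 0.67 to 0.94 in R7-I and 0.88 to 1.10 in R7-III. That of Mki67 over Top2a overlapped between R7-II (0.065 to 0.107) and R7-I (0.058 to 0.082) and was 0.111 to 0.129 in R7-III. All these ratios, like those of Pttg1, Spc24 and Incenp, were chosen after the values had been seen and are given without a test. Ncaph fell by 0.93 and 1.58 and Ncapg by 1.26 and 2.44, while Ncapd2 overlapped between R7-II and R7-I (-0.06) and was lower in R7-II than in R7-III (-0.76). Cdca2, which brings a phosphatase to chromosomes at mitotic exit, fell by 0.36 and 0.84. Its call against R7-I was lost without R7-I replicate 1, 2 or 3, R7-II replicate 1 or 3 or R7-III replicate 2 (adjusted p = 0.0103 to 0.0230), and that between R7-III and R7-I (0.48) without any of the 6 libraries (0.0164 to 0.0293).

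**Figure D5:**
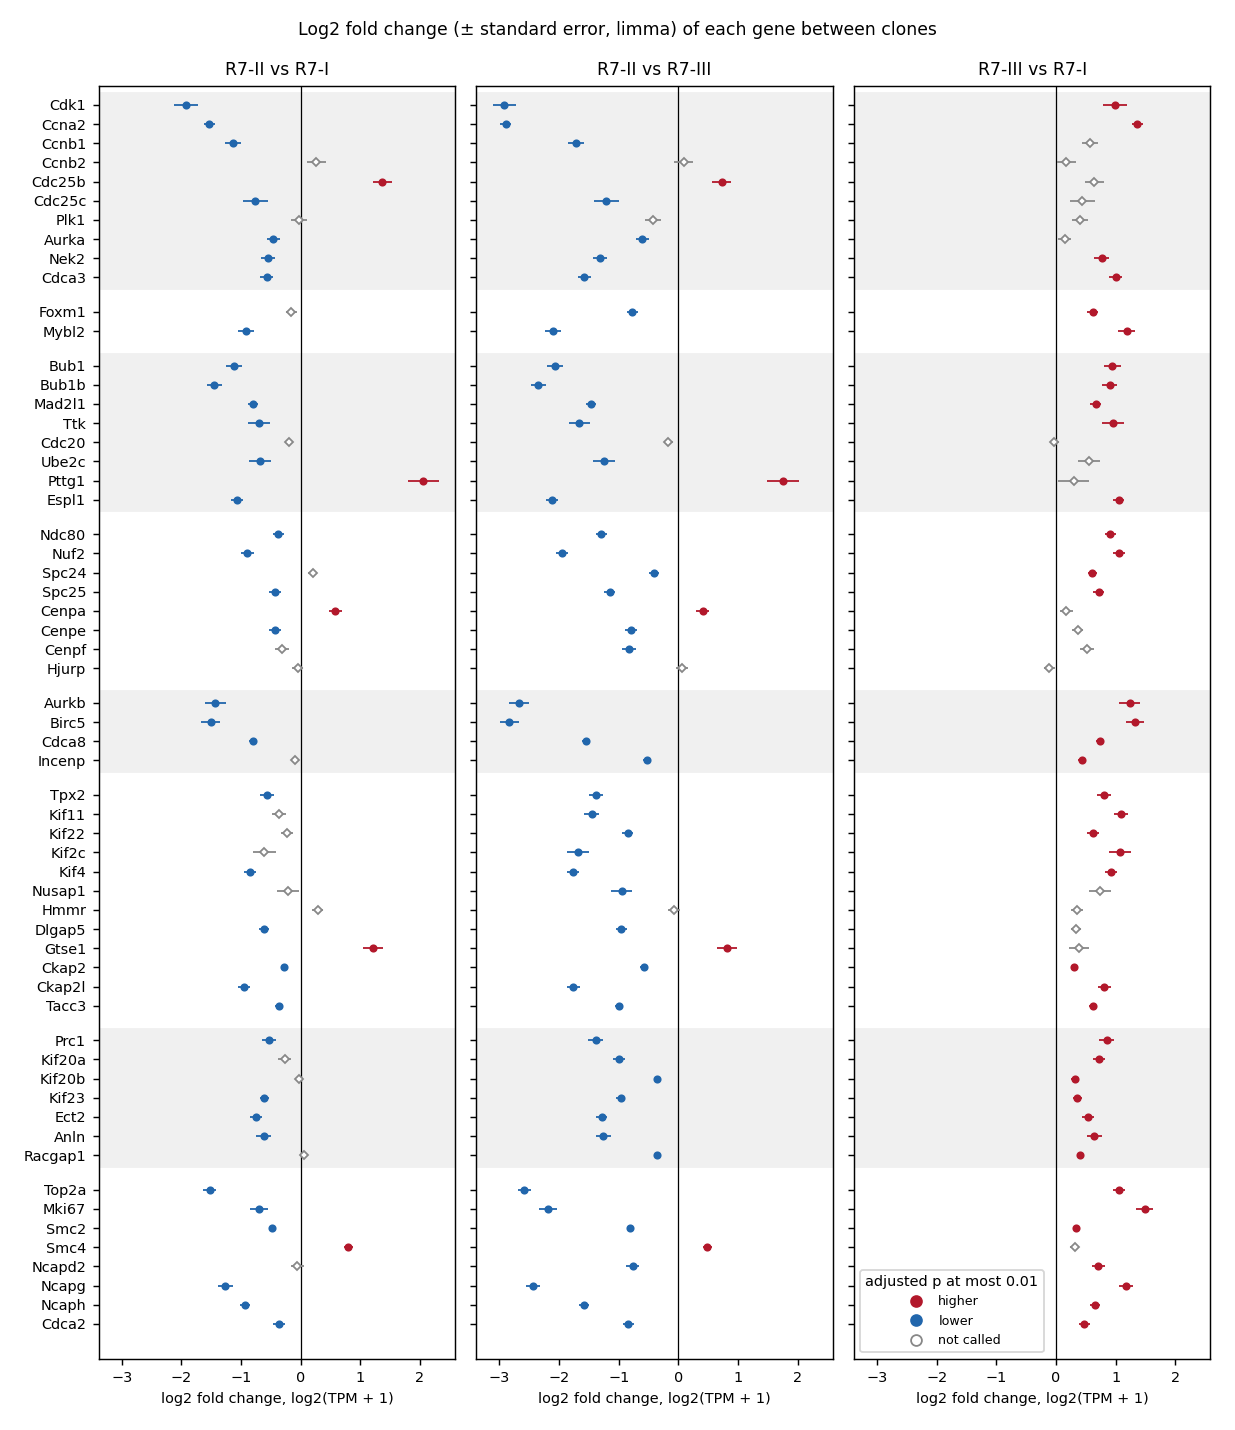
Log2 fold change of TPM + 1 with its standard error (limma) for each of the 59 genes in the 3 comparisons, colored by call at an adjusted p of at most 0.01. Blue marks the 37 and 49 genes lower in R7-II, and red the 5 higher in both and the 41 higher in R7-III than in R7-I.

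Leaving out each of the 9 libraries in turn, 34 of the 42 calls between R7-II and R7-I, 52 of the 54 between R7-II and R7-III and 30 of the 41 between R7-III and R7-I were kept every time. Quantile normalization ended 10 of the 41 (Cdk1, Ttk, Kif2c, Ckap2, Prc1, Kif20b, Kif23, Ect2, Anln and Cdca2). Besides the genes named with their roles, Ccnb1 was called as higher in R7-III than in R7-I without R7-I replicate 2 or R7-II replicate 1 (adjusted p = 0.00570 and 0.00874), Cdc25b without R7-II replicate 1 or 2 (0.00739 and 0.00334), Cenpf without R7-II replicate 2 (0.00976) and Nusap1 without R7-III replicate 1 (0.00738).

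Some of the genes share sequence with others, and the reads were not strand-specific. Exons of 16 of the 59 overlap an exon on the opposite strand (GENCODE vM21), and the overlap covers at least 10% of the exon bases of 7, namely Kif20a (29.3%, with Cdc23), Ube2c (22.8%, with Tnnc2), Kif4 (15.1%), Ncapg (13.4%), Cdc25c (12.7%), Ccna2 (12.5%, with Exosc9) and Prc1 (11.1%). Ccnb1, Mybl2, Ndc80 and Racgap1 have a near-identical copy (at least 95% identity over at least 100 bases) of at least 10% of their transcript in another gene. The values of these 11 genes are uncertain to that extent. Without them the median log2 fold changes of the remaining genes were -0.44 and -0.96 for R7-II against R7-I and R7-III.

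The other genes of mitosis had medians nearer to 0. Of 133 genes in 9 lists of kinetochore, checkpoint, anaphase-promoting complex, entry, spindle, augmin, cohesin, condensin II and MuvB genes, 131 were tested. Against R7-I, 43 were lower in R7-II and 34 higher (median log2 fold change -0.07), which became 66 and 16 after median-of-ratios scaling. On the TPM scale, 15.5% of all genes were lower and 40.6% higher. Against R7-III, 68 were lower and 21 higher (-0.21), and 52 of the 131 were higher in R7-III than in R7-I with 0 lower (0.23). Of all genes, 18.0% were lower and 35.6% higher against R7-III, and 6.96% were higher in R7-III than in R7-I. In the last comparison, 82 had an unadjusted p under 0.05 with limma, against 32.3% of all genes, and 28, 30, 33 and 26 were higher without R7-I replicate 1 and R7-III replicates 1, 2 and 3.

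The lists nearest to the 59 genes in function had falls in R7-II. Of all genes tested, 15.5% were lower and 40.6% higher in R7-II against R7-I, and 18.0% and 35.6% against R7-III. In R7-III, 6.96% were higher than in R7-I. These shares stand beside the counts of every list below. Of 31 further kinetochore and centromere genes, 15 were lower and 4 higher against R7-I and 22 lower and 2 higher against R7-III, with 17 higher in R7-III than in R7-I. Kntc1, a subunit of the complex that brings dynein to kinetochores, had the largest fall (-1.11 and -2.28) and Cenpt, a centromere anchor of NDC80, the largest rise (0.49 and 0.42). Stra13, the older symbol of Cenpx, was the most abundant, at 69.9, 69.8 and 85.0 TPM in R7-I, R7-II and R7-III. Of 8 checkpoint and cohesion genes, 4 were lower and 1 higher against R7-I and 5 and 1 against R7-III. Trip13, the ATPase that recycles Mad2, fell by 1.24 and 1.95, its partner Mad2l1bp rose by 0.43 and 0.37, and Bub3 did not pass the test in any comparison at means of 121 to 122 TPM. Cdca5 (sororin), which guards cohesin, had the largest difference of this list between R7-III and R7-I (1.11).

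Of 15 other entry regulators, 8 were lower and 3 higher against R7-I and 10 and 2 against R7-III, with 7 higher in R7-III than in R7-I. Pbk, a mitotic kinase, had the largest fall (-1.59 and -2.80), Cdc14b, a phosphatase, the largest rise (0.69 and 0.56), and Ensa, an inhibitor of the phosphatase PP2A and the most abundant over the 9 libraries, rose by 0.45 and 0.42. Of 20 other spindle genes tested, 7 were lower and 5 higher against R7-I and 14 and 4 against R7-III, with 11 higher in R7-III than in R7-I. Kif14, Aspm and Depdc1a exceeded 1 TPM in R7-III libraries alone and entered the test through the clone in which they were high. They are among the 14 lower against R7-III, and Aspm and Depdc1a also among the 11. Troap fell by 1.23 and 1.99, and Spag5 (astrin) was 1.10 higher in R7-III than in R7-I. Numa1, which anchors dynein at spindle poles and was the most abundant, rose by 0.76 and 0.57, Psrc1 by 1.22 and 0.91 and Depdc1b by 1.12 and 1.03. Depdc1b exceeded 1 TPM in R7-II libraries alone (mean 1.63 TPM) and so entered the test through the clone in which it was high.

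The counts of the next 3 lists stand beside 40.6% of all genes higher and 15.5% lower in R7-II against R7-I. Against R7-III these shares were 35.6% and 18.0%, and 6.96% of all genes were higher in R7-III than in R7-I. The shares change with the scaling. Of 17 genes of the anaphase-promoting complex and its partners, 2 were lower and 6 higher against R7-I and 4 and 4 against R7-III, with 3 higher in R7-III than in R7-I and medians of 0.07, -0.00 and 0.06. Ube2s, which extends its ubiquitin chains and was the most abundant, at means of 300, 225 and 297 TPM in R7-I, R7-II and R7-III, fell by 0.42 and 0.40. Anapc16 had the largest rise against R7-I (0.39), Anapc2 that against R7-III (0.32), and Fbxo5, an inhibitor of the complex, was 0.53 higher in R7-III than in R7-I. Of 15 augmin and gamma-tubulin genes, 3 were lower and 5 higher against R7-I and 6 and 2 against R7-III, with 5 higher in R7-III. Haus4 fell by 0.31 and 1.25, the abundant Tubg1 by 0.18 and 0.46, Tubgcp3 rose by 0.30 against R7-I and Tubgcp5 by 0.30 against R7-III. Of 12 cohesin genes, 1 was lower and 7 higher against R7-I and 1 and 4 against R7-III, with 2 higher in R7-III than in R7-I. The 1 that fell was Esco2, the acetyltransferase of S phase (-0.94 and -1.95), the largest rise was that of the loader Mau2 (0.67 and 0.72), and the abundant ring subunit Smc1a was not called in R7-II (0.05 and -0.08).

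In the condensin II and MuvB lists a few genes changed. Of the 3 genes specific to condensin II, Ncapg2 fell by 1.09 and 1.93, while Ncaph2, the most abundant, differed by 0.11 and -0.01. Of 10 genes of the MuvB and DREAM complexes, 2 were lower and 2 higher against R7-I and 4 and 2 against R7-III, with 1 higher in R7-III than in R7-I. Of all genes, 15.5% were lower and 40.6% higher against R7-I and 18.0% and 35.6% against R7-III, with 6.96% higher in R7-III than in R7-I. Rbl2, the p130 pocket protein of the repressive complex in resting cells, rose by 1.44 and 1.04, from means of 13.2 TPM in R7-I and 17.5 in R7-III to 37.1. Tfdp1, the dimerization partner of E2F, fell by 0.40 and 0.69, and E2f4, the E2F of that complex and the most abundant of the list, fell by 0.12 and 0.14.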

How the data were processed

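RNA of peptide-activated, sorted CD8 T cells (90 to 95% pure per the labels) was sequenced as single-end reads that do not mark the strand. The authors estimated gene levels with RSEM 1.2.11 on mm10 RefSeq genes and deposited the TPM, rounded to 2 decimals. The aligner was not given in the sources used here. DESeq2 1.8.1, which the authors ran on counts, was not used. TPM keeps no depth, so precision is given by the spread of 3 libraries per clone.

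From the deposited TPM, log2(TPM + 1) was taken. The 11330 genes exceeding 1 TPM in some library entered a single limma 3.58.1 model of all 9 libraries (R 4.3.3, lmFit and trended eBayes). P-values were adjusted by the Benjamini-Hochberg method, and an adjusted p of at most 0.01 was a call. The fit was run on simulated data in which a small share of genes was changed in R7-II alone, equally often up and down. Such data cannot show how the calls depend on the scaling. Promoters (RefSeq, GRCm38.p6) were searched for fixed letters, GENCODE vM21 exons were compared for overlap and transcripts with blastn 2.17.0. Tables and figures were made in Python 3.11.15.

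The genes, roles and lists were chosen with earlier results of these data known. By rule, library values are given for the most abundant gene of each role (mean of the 9 libraries) and, in each comparison, for the 3 largest changes in each direction and the 3 smallest. From each list of other mitotic genes, the most abundant gene and the largest called change in each direction are named in each comparison. Alternatives were other pseudocounts, filters, scalings, moderation and thresholds, separate fits of each pair of clones, a replicate block, each library left out, and, added after seeing the data, leaving out genes that share sequence. Fam83d and Fam64a did not pass the filter. Promoters of 11 of the 59 genes were not in the table.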

Additional observations from a re-analysis of the deposited data

How the results depend on the processing

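No alternative gave a call in the direction opposite to a call reported. Over 19 alternatives, 3310 single-gene results were compared, of which 3088 kept their direction and side of the threshold, 145 lost a call, 61 gained one and 16 changed sign, none of them a gene called in that comparison. The median over the 59 genes for R7-II against R7-I and R7-III was -0.72 and -1.51 with a pseudocount of 0.1, and -0.23 and -0.65 with a pseudocount of 5, where R7-III against R7-I gave 0.40. With only genes of at least 1 TPM in every library it was -0.37 and -0.90, and 24 genes were lower against R7-I, since fewer genes were tested. Median-of-ratios scaling gave -0.64 against R7-I, 66 other mitotic genes lower and 16 higher there, and 1 lower in R7-III than in R7-I. Quantile normalization gave -0.87, -1.36 and 0.54, 69 other mitotic genes lower and 16 higher against R7-I, 3 of the 59 higher against R7-III, and 30 other mitotic genes called, all higher, in R7-III against R7-I. Without the 11 genes that share sequence the medians were -0.44 and -0.96.

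With single libraries left out, the 59 genes gave 35 to 43 calls for R7-II against R7-I, 52 to 55 against R7-III (3 to 5 higher, 3 without R7-III replicate 1) and 30 to 44 for R7-III against R7-I. The median against R7-III lay between -1.27 and -1.05, and the other mitotic genes called, all higher, for R7-III against R7-I between 26 and 55. The sign changed for Racgap1 (-0.12, R7-II against R7-I) and Hjurp (-0.057, against R7-III) after median-of-ratios scaling. After quantile normalization it changed against R7-I for Ccnb2 (-0.075), Spc24 (-0.030), Hmmr (-0.074) and Racgap1 (-0.21) and against R7-III for Ccnb2 (-0.15) and Hjurp (-0.13). Racgap1 then passed the threshold as lower (adjusted p = 0.00542 from limma). With libraries left out, values near 0 changed sign, in the range -0.11 to 0.044 for Plk1, -0.14 to 0.017 for Hjurp, -0.065 to 0.014 for Kif20b and -0.16 to 0.028 for Ncapd2 against R7-I, -0.17 to 0.0037 for Hmmr against R7-III and -0.071 to 0.028 for Cdc20 in R7-III against R7-I. The cause of these changes was not tested.

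No pairing of the samples by replicate number was detected. Correlations of same-numbered libraries' deviations from their clone's mean were between -0.04 and 0.09, and not every library correlated best with its own number. With the number as a replicate block, 41, 53 and 36 of the 59 genes were called in the 3 comparisons, against 42, 54 and 41. Of the 59 genes, 24 had a mean below 5 TPM, and the reads behind their values are unknown.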
